A study of Mus musculus with 4 samples.

Results

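The genes described here are 29 members of 7 subfamilies that are present in several copies in the mouse genome and belong to families known for transcription at the 2-cell stage: Zscan4 (5 genes), Usp17l (5), Tcstv (2), Tdpoz (5), Pramel (5), Pramef (6) and Duxf (1). They were chosen by symbol, as the autosomal genes that GENCODE mouse release M21 lists as protein-coding and whose symbols begin with Zscan4a to Zscan4f, Usp17l, Tcstv, Tdpoz, Pramel, Pramef or Duxf, and they are 29 of 20807 autosomal protein-coding genes. The rule itself uses no measured value. They fall into 8 clusters, where members of a chromosome at gaps of up to 1 Mb form a cluster.

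Open chromatin was mapped by ATAC-seq, in which a transposase cuts and tags accessible DNA, in E14 mouse embryonic stem cells (ESCs) grown in serum with LIF. The cells carried a pLKO lentivirus, were selected with puromycin, and expressed a short hairpin RNA against GFP (shGFP, 1 library) or against luciferase (shLuc, 3 libraries). Neither target is a mouse gene, so both groups are controls that share the virus, the selection and the cell line, and the labels number the shLuc libraries as replicates without saying whether they came from separate cultures. A peak is an interval in which reads piled up, and the lists give its position without a height: they hold 41943 peaks for shGFP and 17860, 41401 and 31585 for shLuc replicates 1, 2 and 3.

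In the mouse embryo the zygotic genome is switched on at the 2-cell stage, and Duxf3, a double homeobox transcription factor usually called Dux, binds and activates many of the genes that are transcribed in that wave, among them Zscan4. A small and changing share of cells in an ESC culture passes through a state that transcribes these genes, the 2-cell-like state, while the others keep them silent. In a bulk assay few open cells and little opening per cell cannot be told apart, and a locus open in few cells may give no peak at all.

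The 14 ESC markers listed for a check of the label had a peak within 1 kb of a transcript start in 7, 2, 7 and 7 cases and within 10 kb in 13, 5, 10 and 11 cases (shGFP, then shLuc replicates 1, 2 and 3). The shares within 1 kb, 50, 14.3, 50 and 50%, were below those of all autosomal protein-coding genes in each library (61.9, 48.4, 61.5 and 56.3%). The shares within 10 kb, 92.9, 35.7, 71.4 and 78.6%, stood beside 75.4, 57.9, 75.2 and 68.9% of all these genes. They were lower in shLuc replicates 1 and 2 and higher in shGFP and shLuc replicate 3. The list as a whole thus did not set these cells apart. Zfp42 and Tfcp2l1, a marker and a transcription factor of naive ESCs, had a peak over a start in all 4 libraries, and Sox2 had none within 10 kb in any.

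The sequences at the starts show how alike the copies are. The stretches below come from the RefSeq promoter table on GRCm38.p6 (the coordinates of mm10), which holds 22 of the 29 members (Tdpoz2, Tdpoz3, Pramef8, Zscan4e, Usp17le, Tcstv1 and Tcstv3 are the others). They are read along the strand of the gene and start at the same point of each copy. Capitals mark any of 3 promoter motifs on either strand, which are TATAAA (the core of the element known as a TATA box), CCAAT, and GGGCGG (known as a GC box). On the opposite strand CCAAT reads as ATTGG. The Zscan4 promoters are given because no library had a peak at any of them, at chr7:10905002-10905141 (minus strand), chr7:11005631-11005770 (plus), chr7:11166134-11166273 (minus) and chr7:11397824-11397963 (plus):
Zscan4b: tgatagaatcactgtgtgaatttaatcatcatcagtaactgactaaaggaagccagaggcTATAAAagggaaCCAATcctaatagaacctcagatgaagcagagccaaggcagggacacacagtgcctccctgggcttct
Zscan4c: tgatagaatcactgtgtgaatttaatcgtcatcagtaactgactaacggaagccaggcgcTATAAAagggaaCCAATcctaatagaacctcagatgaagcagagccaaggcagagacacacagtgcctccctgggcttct
Zscan4d: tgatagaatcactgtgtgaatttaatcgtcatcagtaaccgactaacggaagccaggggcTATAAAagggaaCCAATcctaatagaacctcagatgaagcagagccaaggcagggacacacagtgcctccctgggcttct
Zscan4f: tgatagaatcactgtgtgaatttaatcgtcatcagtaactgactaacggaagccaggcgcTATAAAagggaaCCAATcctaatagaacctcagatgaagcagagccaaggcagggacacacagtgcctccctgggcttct

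Over these 140 bases, compared position by position without gaps, the 6 pairs of Zscan4 promoters were 96.4 to 99.3% identical. The pair Zscan4c and Zscan4f differed at 1 base (139 of 140 identical). Each held TATAAA and CCAAT at the same place. A short read from this stretch can fall on bases that several of the genes have in common.

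The Usp17l promoters were less alike. The stretches of 120 bases lie at chr7:104856915-104857034 (plus), chr7:104842550-104842669 (minus), chr7:103416553-103416672 (plus) and chr7:103252551-103252670 (minus), and are given because the first pair and the second pair lie in separate clusters:
Usp17la: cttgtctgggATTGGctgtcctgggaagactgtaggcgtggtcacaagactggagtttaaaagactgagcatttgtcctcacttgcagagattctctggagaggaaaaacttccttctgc
Usp17lb: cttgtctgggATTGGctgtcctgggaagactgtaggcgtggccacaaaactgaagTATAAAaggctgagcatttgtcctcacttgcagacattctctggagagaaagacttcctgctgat
Usp17lc: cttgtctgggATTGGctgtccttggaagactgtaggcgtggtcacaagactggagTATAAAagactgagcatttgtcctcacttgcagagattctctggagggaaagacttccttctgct
Usp17ld: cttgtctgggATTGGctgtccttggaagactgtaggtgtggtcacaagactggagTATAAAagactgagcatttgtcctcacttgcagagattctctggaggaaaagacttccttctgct

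Compared position by position without gaps, identity ran from 85.0% (Usp17la and Usp17lb, neighbours in a cluster) to 98.3% (Usp17lc and Usp17ld, neighbours in the other). Usp17la holds an extra base near the end of the stretch. Its last bases were thus compared out of step, and its identity values come out low. TATAAA stood in 3 of the 4 promoters and was missing from Usp17la in this stretch.

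Over all 22 member promoters in the table (250 bases before to 50 after the start, both strands), TATAAA was found in 7, the 4 Zscan4 and 3 Usp17l promoters, and in 13.6% of the 32851 promoters of the table. CCAAT was found in 16 of 22 and in 37.4% of all. GGGCGG was found in 1 of 22, Pramel1, and in 35.7% of all. These matches are descriptions of the letters in the window and carry no statement about binding. The RefSeq start lay 4675 bp from the GENCODE 5′ end for Pramel7, 1624 bp for Usp17lc and 414 bp for Duxf3. For the other promoters in the table it lay at most 27 bp away. Peak distances below use GENCODE transcript starts, and the composition of promoters uses the GENCODE 5′ end.

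The starts of Pramel1 and Pramef8 complete the set, because they are the Pramel and Pramef genes at which a peak lay over the start. The Pramel1 promoter (chr4:143394191-143394490, plus strand) held GGGCGG and CCAAT, and the 300 bases around the 5′ end of Pramef8 (chr4:143412276-143412575, plus strand) were read from the genome:
Pramel1: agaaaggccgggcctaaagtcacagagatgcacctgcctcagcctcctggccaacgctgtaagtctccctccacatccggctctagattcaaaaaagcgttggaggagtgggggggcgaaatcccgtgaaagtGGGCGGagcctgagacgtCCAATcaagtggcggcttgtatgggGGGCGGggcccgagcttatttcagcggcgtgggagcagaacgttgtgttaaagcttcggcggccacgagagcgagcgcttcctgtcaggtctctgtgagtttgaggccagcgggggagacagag
Pramef8: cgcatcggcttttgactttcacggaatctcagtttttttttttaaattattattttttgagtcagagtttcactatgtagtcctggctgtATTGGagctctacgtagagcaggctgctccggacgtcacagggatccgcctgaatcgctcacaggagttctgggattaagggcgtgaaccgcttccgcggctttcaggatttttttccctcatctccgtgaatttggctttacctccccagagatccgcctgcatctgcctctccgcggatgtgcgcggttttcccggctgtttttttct

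Few members had open chromatin at a start. Within 1 kb of any transcript start, 3 members had a peak in shGFP, 2 in shLuc replicate 1, 2 in replicate 2 and 1 in replicate 3, against 61.9, 48.4, 61.5 and 56.3% of all autosomal protein-coding genes in the same libraries. The members' shares were 10.3, 6.90, 6.90 and 3.45%, and the shLuc mean was 1.67 ± 0.577 members (SD, n = 3). In at least 1 library the count was 3 of 29, where 66% of all genes were called, and in all 4 libraries 1 of 29, where 44% were.

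Members were also fewer than other genes in the wider window. Within 10 kb, 8, 4, 7 and 6 members had a peak (27.6, 13.8, 24.1 and 20.7%), against 75.4, 57.9, 75.2 and 68.9% of all genes. In at least 1 library 9 of 29 members had a peak (79.7% of all genes), and in all 4 libraries 4 of 29 (53.8%). Every library thus placed the members below the background in both windows.

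The shGFP count within 10 kb exceeded the shLuc mean of 5.67 ± 1.53 (SD, n = 3) by 2.33, but the lists differ in length. With the widest 17860 peaks of each list the counts were 3, 4, 5 and 2, so that shGFP lay below the shLuc mean by a difference of -0.667. With 1 library against 3 an exact permutation test cannot give a p below 0.25, and no test was run.

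The median distance from a member to the nearest peak was 16.8 kb in shGFP and 148, 18.6 and 25.4 kb in shLuc replicates 1, 2 and 3. For the other 20778 autosomal protein-coding genes it was 0, 2.41, 0 and 0 kb. The neighbourhood was sparser as well: within 100 kb of a start, members had a median of 3 open regions (range 1 to 8), where a region is the union of overlapping peaks of the 4 libraries, and other genes had 7 (range 0 to 25).

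**Figure D1:**
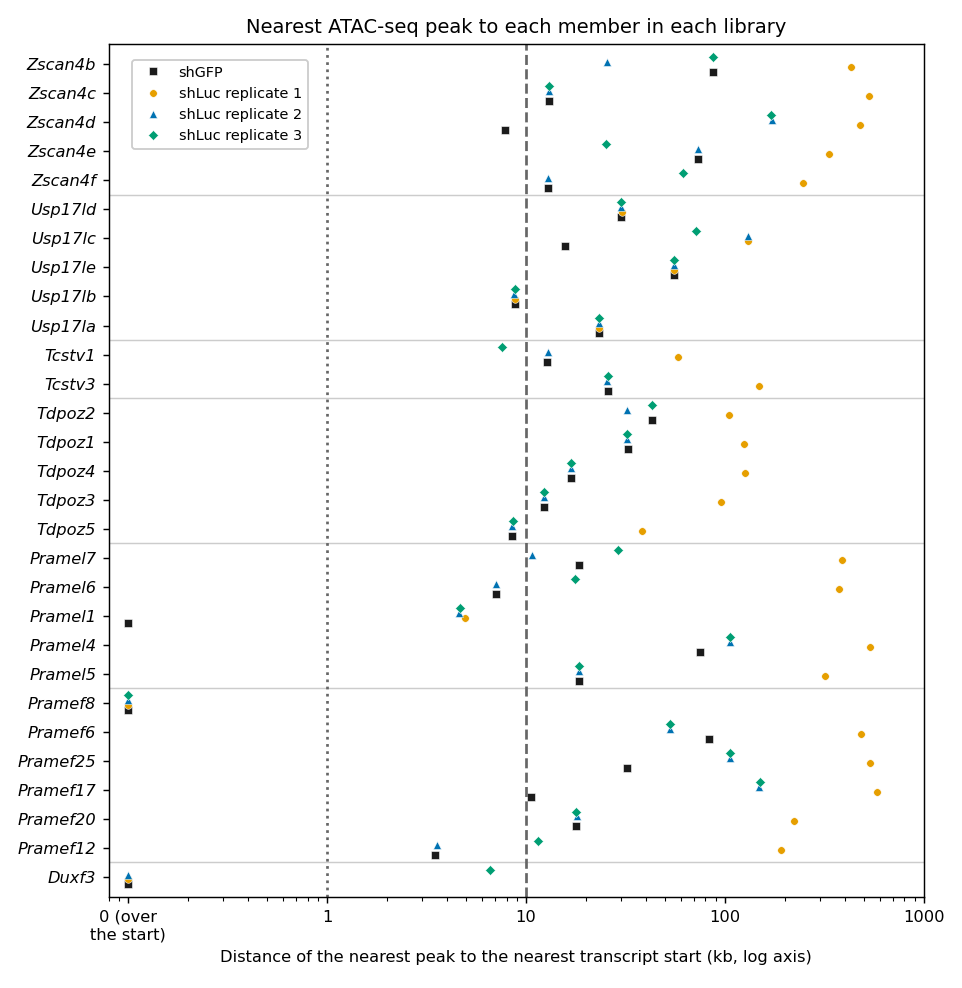
Distance from each of the 29 members to its nearest peak in each library, on a log axis in kb, with peaks over a start drawn at the left end and lines at 1 and 10 kb. Pramef8 had a peak over its start in all 4 libraries, and 20 members had no peak within 10 kb in any.

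The Duxf member, Duxf3 (ENSMUSG00000075046, chr10:58229979-58232675, minus strand), had a peak over its start in shGFP and in shLuc replicates 1 and 2, with widths of 1800, 1637 and 1792 bp. In shLuc replicate 3 the nearest peak lay 6564 bp upstream. The 3 peaks merged to a region at chr10:58230979-58232820, which lay mostly inside the gene. The RefSeq start of Duxf3 lay 414 bp from the GENCODE 5′ end and 269 bp outside this region. Of the region's bases, 9.23% were soft-masked (written in lower case in the reference because they are annotated as repeats).

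This region was nevertheless repeated. Of its words of 50 bases, 60.6% occurred elsewhere in the genome, and 1 further copy at 98.1% identity lay at chr10:58223300-58225141 inside AW822073, where no library had a peak. The peak that shLuc replicate 3 did have belonged to a region at chr10:58239161-58239625, in the pseudogene Gm19459, which was open in all 4 libraries. It had 4 further copies nearby (in Gm4981, Gm10807, AW822073 and Duxf3 itself), and none overlapped a peak. The study's alignment put a read with several equally good placements at a random copy, so which copy of such a set was open was not tested.

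No Zscan4 member, zinc finger genes known for telomere maintenance in ESCs, had a peak within 1 kb. Zscan4d had the nearest one, 7830 bp downstream of its start in shGFP (chr7:11158009-11158329), against 478384, 173479 and 169945 bp in shLuc replicates 1, 2 and 3. The farthest from open chromatin was Zscan4b, whose nearest region lay 25451 bp upstream and was found in shLuc replicate 2.

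Zscan4c and Zscan4f shared a region at nearly the same distance. The one upstream of Zscan4c (chr7:10991953-10992680, 728 bp, in the pseudogene Gm7789) lay 13093, 13065 and 13068 bp from the start in shGFP and shLuc replicates 2 and 3. The one upstream of Zscan4f (chr7:11384169-11385054, in the pseudogene Gm45598) lay 12976 and 12861 bp away in shGFP and shLuc replicate 2. Neither was in the shortest list, shLuc replicate 1. A stretch of 200 bases is printed below with the copy upstream of Zscan4-ps2 (a gene outside the rule), because it is the open sequence nearest to the Zscan4c and Zscan4f starts. The stretches lie at chr7:10992153-10992352, chr7:11384361-11384560 and chr7:11500771-11500970, all on the plus strand, and capitals mark bases that differ from the Zscan4c copy:
upstream of Zscan4c: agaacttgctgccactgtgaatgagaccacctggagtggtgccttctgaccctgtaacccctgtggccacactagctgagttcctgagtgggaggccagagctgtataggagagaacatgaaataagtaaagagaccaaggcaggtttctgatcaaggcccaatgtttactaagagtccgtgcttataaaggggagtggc
upstream of Zscan4f: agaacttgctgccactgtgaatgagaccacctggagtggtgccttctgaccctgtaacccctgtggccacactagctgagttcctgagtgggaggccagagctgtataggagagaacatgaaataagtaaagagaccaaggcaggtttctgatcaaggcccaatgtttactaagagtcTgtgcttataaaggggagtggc
upstream of Zscan4-ps2: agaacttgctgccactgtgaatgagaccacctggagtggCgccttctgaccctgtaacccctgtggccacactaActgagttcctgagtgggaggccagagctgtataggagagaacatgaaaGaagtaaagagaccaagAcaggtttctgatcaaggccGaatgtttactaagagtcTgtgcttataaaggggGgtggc

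The Zscan4f copy differed at 4 of 728 bases (99.5% identity) and the Zscan4-ps2 copy at 19 (97.4%), 1 and 7 of them in the printed part. The copy upstream of Zscan4-ps2 lay 13012 bp from that start and overlapped a peak in shLuc replicate 2. More distant copies of the Zscan4c region lay upstream of Zscan4a (17643 bp, 92.7%), Zscan4-ps1 (15634 bp, 91.5%) and Zscan4-ps3 (18602 bp, 90.4%), and no library had a peak at these. The Zscan4f region also had a copy in the pseudogene Gm7207 (90.4%), with a peak in shGFP. Another copy of it, in the pseudogene Gm39481 (90.3%), had no peak. The region near Zscan4d likewise had a copy 7866 bp downstream of Zscan4-ps3 (97.2% identity), which was open in 3 libraries.

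None of the 5 Usp17l members, a family of ubiquitin-specific proteases, had a peak at its start. Usp17lb had a peak at 8822, 8829, 8723 and 8772 bp downstream in the 4 libraries, all of them in the region chr7:104833043-104833781, which was 100% soft-masked. This region had 4290 copies elsewhere at 90% identity or more over at least 50% of its length, and 46.6% of them overlapped a peak. Reads that fit several copies equally well were placed at random, so whether this copy was open was not tested. The next member, Usp17lc, had its nearest region at 15701 bp in shGFP, and the farthest, Usp17le, at 55518 bp in all 4 libraries.

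Neither Tcstv member, genes named for their variable expression at the 2-cell stage, had a peak within 1 kb. Tcstv1 had a peak 7622 bp downstream in shLuc replicate 3 and at 12703, 57993 and 12944 bp in shGFP and shLuc replicates 1 and 2. Tcstv3 had its nearest region at 25723 bp upstream, and no open region was listed between it and the end of chromosome 13. Much of the sequence beside this span is unknown in the reference. In the 250 kb on either side of it, 253 kb in all was known, and unknown bases can hold no peak. The lack of a region there is thus no sign of closed chromatin.

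The 5 Tdpoz members, genes of proteins with a TRAF (MATH) and a BTB/POZ domain, had no peak within 1 kb. Tdpoz5 had a peak 8555, 8505 and 8566 bp upstream in shGFP and shLuc replicates 2 and 3 and at 38232 bp in shLuc replicate 1. Its region (chr3:93969819-93970460, 81.3% soft-masked) lay at the pseudogene Gm37807 and had 16 copies, each of which overlapped a peak. Of the other Tdpoz members the nearest to open chromatin was Tdpoz3, at 12306 bp, and the farthest was Tdpoz1, at 32327 bp.

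The Pramel and Pramef genes encode leucine-rich repeat proteins of the PRAME family, expressed in germ cells and early embryos. Pramef8 (chr4:143412426-143421091) had a peak over its start in every library, with widths of 889, 553, 725 and 647 bp. Its region (chr4:143412150-143413067) was 37.8% soft-masked, held no word found elsewhere and had no copy. Pramef8 was the member open at a start in all 4 libraries.

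Pramel1 had a peak over its start in shGFP (chr4:143394332-143394825, 494 bp). In shLuc replicates 1, 2 and 3 its nearest peaks lay 4949, 4610 and 4641 bp upstream, in the pseudogene Anp32b-ps1. That upstream region was open in all 4 libraries.

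Pramef12, which is known for a role in male germline stem cells, had a peak 3504 and 3556 bp downstream of a start in shGFP and shLuc replicate 2, and at 192448 and 11490 bp in shLuc replicates 1 and 3. The region (chr4:144404149-144404913) lay inside the gene, at the start of the antisense transcript Pramef12os. Pramel6 had a peak at 7085 and 7109 bp in shGFP and shLuc replicate 2 (chr2:87515543-87516643), by the pseudogene Gm13738, and none within 10 kb in the others. Among the rest, the Pramef gene with the nearest region was Pramef17, at 10611 bp, and the Pramef gene with the farthest was Pramef6, at 53004 bp. For Pramel these were Pramel7, at 10730 bp, and Pramel4, at 75368 bp, the largest distance among the members.

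By subfamily, the members with a peak within 10 kb in at least 1 library were 1 of 5 Zscan4, 1 of 5 Usp17l, 1 of 2 Tcstv, 1 of 5 Tdpoz, 2 of 5 Pramel, 2 of 6 Pramef and 1 of 1 Duxf genes. Of the 20 without, 9 had their nearest region between 10 and 20 kb and 3 beyond 50 kb (median 24.3 kb).

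Other gene families set these counts in context. Olfactory and vomeronasal receptor genes, tandem families of sensory receptors, had a peak within 1 kb in 19, 6, 21 and 10 of 1457 cases and within 10 kb in 17.1, 6.11, 17.3 and 12.8%. The members' shares within 10 kb were above these in each library, a difference that was not tested. The zinc finger genes Zfp600 to Zfp999 were the opposite case, with 150, 118, 144 and 141 of 170 genes open within 1 kb.

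Other genes with repeated promoters lay in between. For 858 other genes in which at least 50% of the promoter's 50-base words recur, 19.8, 13.6, 19.5 and 18.8% had a peak within 1 kb and 35.8, 22.8, 36 and 31.1% within 10 kb. The 29 members were lower than this group in each library and in both windows, a difference that was also not tested. Only 11 of the 29 met the same limit of 50%. In at least 1 library, 1 and 3 of these 11 had a peak within 1 and 10 kb (9.09 and 27.3%), against 21.6 and 39.9% of the group.

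Other genes of the same wave and their regulators were listed separately. Of 15 other 2-cell-stage genes, 1 (Arg2, an arginase) had a peak within 1 kb, in all 4 libraries. That was 6.67%, against 61.9, 48.4, 61.5 and 56.3% of all autosomal protein-coding genes. Within 10 kb 5, 4, 5 and 4 had a peak (33.3, 26.7, 33.3 and 26.7%, against 75.4, 57.9, 75.2 and 68.9%). Tmem92, Gata2 and Arg2 were among them in every library. Of 22 genes known to activate or restrain the 2-cell-like state, 20, 16, 20 and 16 had a peak within 1 kb. These shares, 90.9, 72.7, 90.9 and 72.7%, were above the share of all genes in each library. Dppa2, an upstream activator of Duxf3, had a peak over its start in 3 libraries, and its partner Dppa4 had none within 10 kb.

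Promoter composition did not enter the choice by symbol. Over 1 kb on either side of the 5′ end, the ratio of observed to expected CpG had a median of 0.0937 (range 0.0527 to 0.549), and the highest values belonged to Pramef8 (0.549), Pramel1 (0.521), Duxf3 (0.356), Pramef12 (0.322) and Tdpoz5 (0.225). The median was 0.487 over the other autosomal protein-coding genes and 0.108 over the olfactory and vomeronasal receptor genes, so a low ratio is not particular to the members. The 3 members with a peak over a start were thus the 3 with the highest ratio. The rank is a description over 29 genes that share sequence and so are not independent.

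Other genes of low CpG ratio were seldom open as well. Of 1353 other genes with a ratio under 0.1, 5.62% had a peak within 1 kb and 25.4% within 10 kb in at least 1 library, and the 17 members in that range had 0 and 3. Between 0.1 and 0.3, 24.3 and 54.5% of 5770 other genes had a peak, and of 8 members 0 and 2. Between 0.3 and 0.6, 83.4 and 92.8% of 6374 other genes had a peak, and of 4 members 3 and 4.

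Repetition was frequent but not common to all members, since 6 of 29 windows had under 5% recurring words. A median of 43.2% of the 50-base words of a member's promoter window recurred (range 0 to 92.6%), and 11 of 29 windows were at 50% or more. Among the other genes 858 of 20778 windows were, with a median of 0 and a mean of 6.14%, and among the 15 other 2-cell-stage genes 7 were. Soft-masked bases made up 12.5 to 48.2% of a window (median 20.5%, mean 24.8%), so part of this repetition lay in sequence not annotated as a repeat. The Zscan4 windows were the example, with 15.2% soft-masked and 80.1% recurring words at the median of the 5 genes, and 34.2 to 73.2% of the words of each shared with another Zscan4 member.

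The counts by repetition did not fall steadily. Of the 6 members under 5% recurring words, 2 had a peak within 1 kb and 5 within 10 kb in at least 1 library. Of 12 members between 5 and 50% the counts were 0 and 1, and of 11 members at 50% or more they were 1 and 3. For other genes the shares within 1 kb fell from 72% to 45.4% and 21.6% over the same ranges. Further copies of the member promoter windows, such as the 9 of each Zscan4 window, were also searched: no library had a peak at any of them. Part of this repeats what is given above, since 4 of those 9 are at the starts of the other Zscan4 members. The windows of Pramel1 and Pramef8 had no copy to search. How far reads that could not be placed lowered the counts was not tested, and neither was the difference of E14 DNA from the C57BL/6J reference.

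**Figure D2:**
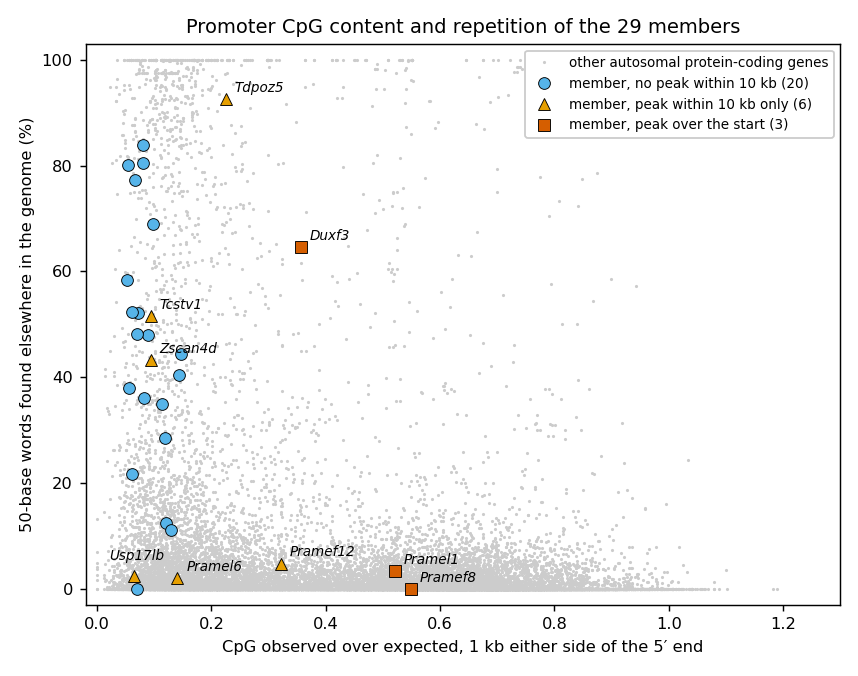
Ratio of observed to expected CpG (horizontal) and percent of 50-base words found elsewhere in the genome (vertical) in the promoter window of each gene, with members coloured by their peaks and other genes in grey. The 3 members with a peak over the start, Pramef8, Pramel1 and Duxf3, lie farthest to the right, between 0.356 and 0.549.

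The clusters themselves were not devoid of peaks. Between the outermost members of the 8 clusters lay 44 open regions, or 17.3 per Mb, against 21.8 per Mb in the 250 kb on either side, 20.4 from 250 to 500 kb, 21 from 500 to 1000 kb and 21.2 over all autosomes. The value turns on single clusters: it was 12.3 per Mb without the Tcstv span, which held 18 of the regions, and 21.6 per Mb, above the autosomal level, without the Pramel and Pramef span. Counted per library, 42, 9, 34 and 26 peaks lay inside, or 16.5, 3.54, 13.4 and 10.2 per Mb against 16.8, 7.21, 16.6 and 12.7 over all autosomes.

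The Pramel7 and Pramel6 span (chr2:87489087-87510872) held no region, with the nearest at 7399 bp before and 4671 bp after it. The Tdpoz span (chr3:93651542-93961314) held 6, with the nearest outside at 31147 and 8505 bp. The Pramel and Pramef span (chr4:143394428-144408464) held 11, with the nearest outside at 4610 and 12131 bp.

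On chromosome 7, the Zscan4 span (chr7:10900740-11402318) held 5 regions, none in all 4 libraries, and its nearest outside regions lay 130930 and 62378 bp away. The Usp17ld and Usp17lc span (chr7:103249737-103419880) held 2 (47546 and 68631 bp to the nearest outside) and the span of Usp17le, Usp17lb and Usp17la (chr7:104768049-104862667) held 1 (46097 and 400276 bp). Around Duxf3 the nearest outside regions lay at 434583 bp, at the start of Smpdl3a, and at 6486 bp, in Gm19459. Part of the sequence beside Duxf3 is unknown in the reference, and unknown bases can hold no peak. In the 250 kb on either side 274 kb in all was known, and from 250 to 500 kb on either side 382 kb was.

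**Figure D3:**
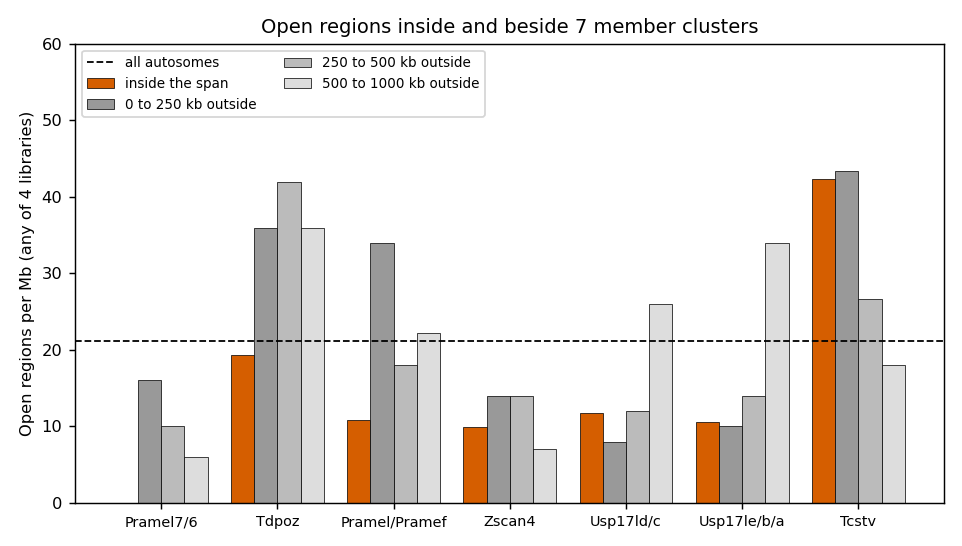
Open regions per Mb inside 7 clusters and in 3 zones outside each, with the autosomal level as a dashed line; the span of Duxf3 alone is under 3 kb long and is left out. The Tcstv span reaches 42.4 per Mb, and the other 6 lie between 0 and 19.4.

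Regions inside the clusters were more repeated than elsewhere. Of the 44, 30 (68.2%) had recurring words at 50% or more, against 12.9% of 50704 autosomal regions. All 18 regions of the Tcstv span were among these 30 (51.9 to 100% recurring words), so the count rests largely on that span. Of the bases of the 44 regions 36% were soft-masked, against 25.8%. The spans are themselves repeated: 52.4% of all words in them recurred, from 4.42% in the Pramel7 and Pramel6 span to 74.3% in the Tcstv span, against 10.3% in windows spread over the autosomes. The 11 regions within 10 kb of a member start were 29.7% soft-masked. Of the 44 regions, 12 were found in 1 library, 6 in 2, 19 in 3 and 7 in 4.

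With the nearest region on each side of each cluster added, 13 regions had between 657 and 4290 copies in the genome. They lay in or beside 6 of the 8 clusters, were 91.2 to 100% soft-masked with 55.1 to 62.7% GC, and 5 of them were open in all 4 libraries. Between 46.6 and 88.9% of their copies overlapped a peak, and with tied reads placed at random, which copies were open was not tested. Among them, 7 regions in or beside the Tdpoz, Pramel and Pramef, Zscan4 and both Usp17l clusters were linked to each other by alignment. Their repeat type was not analysed here.

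At the other end, 10 regions had no copy, 5 of them inside a span. Inside, these were the regions at the starts of Pramel1 and Pramef8, both regions in Pramef12, and the widest region of the Tcstv span, in which 85.3% of words recurred. A further 32 had 1 to 10 copies and 4 had 11 to 500.

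The Tcstv span on chromosome 13 (chr13:119893388-120318178) stood apart, with 42.4 regions per Mb against 43.4 in the 250 kb beside it. A region of 5343 bp in it (chr13:120027830-120033172) was open in all 4 libraries, within 1 kb of a start of the protein-coding gene Gm36079. Around this region 12 of the 18 regions formed 6 inverted pairs. In these a region on the left aligned at 96.7 to 100% identity to one on the right. The midpoints of the pairs, chr13:120031186 to 120031513, lay inside the region of 5343 bp, away from the middle of the span.

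In 5 of the 6 pairs both regions were open together in at least 2 libraries. In 2 pairs, of 1435 and 861 aligned bp at 100% identity, both were open in the same 3 libraries and neither had a peak in the other library. In 3 pairs both were open in 2 or 3 libraries and 1 region alone in 1 library. In the innermost pair each region was open in 1 library and no library showed both. In the 3 pairs of 100% identity, reads that fall within the copies are placed at random, and which copy was open cannot be told apart. The other 3 pairs, at 96.7, 98.4 and 99.4% identity, differ at some bases. The starts of Tcstv1 and Tcstv3 lay outside these pairs.

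**Figure D4:**
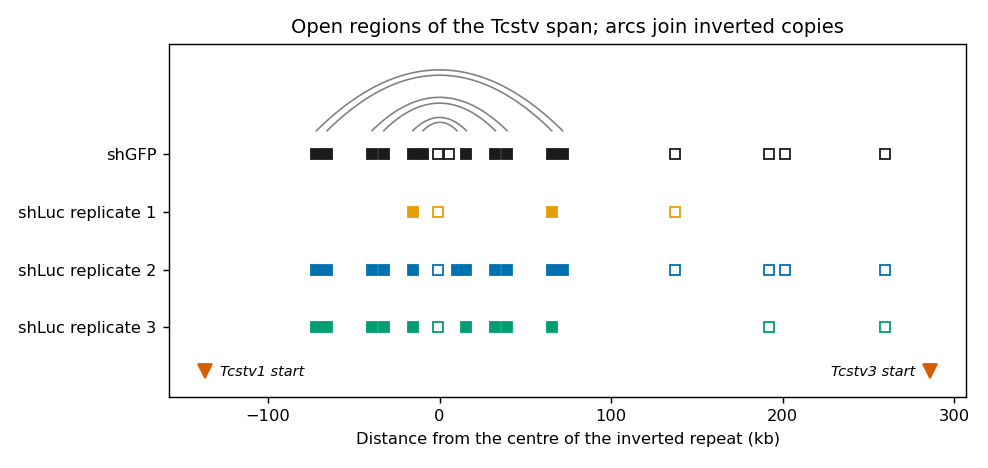
Open regions of the Tcstv span by library, by distance in kb from the centre of the inverted repeat; filled squares are regions with an inverted copy, open squares are others, arcs join the 6 pairs and triangles mark the starts. No square lies at either Tcstv start.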

How the data were processed

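ATAC-seq libraries of E14 ESCs were analysed from the peak lists that the authors deposited, 1 per library and not pooled, each holding chromosome, start and end with no other value (peak positions, no score or count). The submitters' processing notes name Bowtie2, MACS2 and bcl2fastq and the build mm10. By the study's methods, which cover ChIP-seq and ATAC-seq together, ties between equally good alignments were placed at random and concordant pairs were kept. The peak threshold and any read shift are not given in the sources used here. The lists carry no depth, the read totals that the study lists elsewhere were not used here, and a short list may be a shallow library.

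Distances ran from a peak's nearest base to the nearest GENCODE M21 transcript start (0 where it covers the start). Peaks overlapping between libraries were merged into regions. A promoter window spanned 1 kb on either side of the 5′ end. Words of 50 bases were counted on both strands of 21 chromosomes (numba 0.67.0, numpy 2.4.6, Python 3.11.15), checked on simulated data. Copies were BLAST 2.17.0 hits of at least 90% identity over at least 50% of a region, overlapping hits merged. Figures used matplotlib 3.10.9. The members and lists were chosen with earlier results of these data known. All members were named by subfamily and cluster, those with a peak within 10 kb with values, and of the others the nearest and farthest of each subfamily. No test was run, because 1 shGFP library stands against 3 shLuc libraries. Alternatives changed peak width, list length, window, start definition, merging, cluster gap, masking and libraries.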

Additional observations from a re-analysis of the deposited data

How the results depend on the processing

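Of 61 alternative values, 52 kept their direction and stayed within the spread set beside the value, where it had one, or within 1.5 times the reported value. For promoter windows, which are reference sequence, that spread is not one between libraries. With a window of 5 kb in place of 10 kb, 4 members had a peak in at least 1 library (9 with 10 kb) and 2 in all 4 libraries (4 with 10 kb). With the widest 50% of each list, no member (0) had a peak within 10 kb in all 4 libraries, and the spans held 11.4 regions per Mb in place of 17.3. With each list held to the length of the shortest, 1 member was called in all 4 libraries, the density was again 11.4, and shGFP minus the shLuc mean turned from 2.33 to -0.667 members. With peaks of at least 50% soft-masked bases left out, the density was 10.2 per Mb and the regions within 10 kb of a start were 17.9% soft-masked in place of 29.7%; both shifts follow from what was removed, and the cause of the others was not tested.

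Leaving out each shLuc library in turn gave 3 members within 1 kb each time, 8 to 9 within 10 kb, 4 to 5 within 10 kb in all libraries kept, a difference of 1.5 to 3, a density of 16.9 to 17.3 per Mb and 29.2 to 29.9% soft-masked. Without shGFP the values were 2, 8, 4, 13.8 per Mb and 31%. Recurring words averaged 40.8% of a promoter window with 50-base words, 29.8% with 75 and 49.5% with 36. No paired analysis was possible because the shGFP group has a single library and no result comes from a test.

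The lists hold no read counts, so they set no limit of detection, and the absence of a peak is not the absence of open chromatin. Reads from copies alike over a fragment cannot be assigned, and the spans hold many such copies.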
